A study of Rattus norvegicus with 24 samples.

Results

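The genes described here write, erase and read the acetyl marks on histones, and their transcripts were measured in the rat urethra after a simulated vaginal delivery (SVD). The members are the genes of the deposited table named Hdac, Sirt1 to Sirt7, Kat, Brd1 to Brd9, Brpf1, Brpf3, Ing1 to Ing5 and Ncoa1 to Ncoa3, with Ep300 and Crebbp. They came to 42 of the 32883 genes of the table, of which 12 are acetylases, 17 are deacetylases and 13 are readers or scaffolds. Of these, 41 reached a mean of 2 normalized gene counts over the samples and were tested, while Hdac6, a cytoplasmic deacetylase of tubulin, had 1 read in the 24 samples together. Kat2b, Sirt1 and Brd2 were not analysed here.

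Virgin adult female Sprague-Dawley rats underwent SVD, a crush of the pudendal nerves with distension of the vagina, and were injected through the aorta on the same day. The injection held saline, allogeneic mesoangioblasts (MABs allo), which are vessel-associated progenitor cells grown from the hind-limb muscle of another rat, or MABs that also overexpressed VEGF165 (MABs allo-VEGF). Urethras were collected 3d or 7d later, with 4 samples in each of the 6 groups, and 3ʹ mRNA sequencing gave a normalized gene count, the reads of a gene divided by the size factor of the sample. Both kinds of MABs carried a lentiviral reporter of eGFP and luciferase under a CMV promoter, and the VEGF vector, under an SFFV promoter, also held a truncated CD34. The labels give the genotype WT to saline and MABs allo samples and VEGF OE to MABs allo-VEGF samples, although it was the injected cells and not the rats that carried the vectors. Every group, saline included, had SVD, so that no uninjured urethra enters the comparisons. At 7d, MABs allo-VEGF replicates 6 and 7 are labelled as recovered. Samples are separate by their labels, which do not name the animals, and p-values measure the spread between these samples. The tissue is a mixture of cells, in which fewer cells of a type cannot be told apart from less RNA per cell.

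Acetylation of the lysines in histone tails loosens the contact of histones with DNA and makes a docking site for bromodomain proteins, and it is a mark of active promoters and enhancers. Acetylases (KATs) move an acetyl group from acetyl-CoA to the lysine, deacetylases (HDACs, which need zinc, and sirtuins, which need NAD) remove it, and readers such as the BET proteins bind it and bring in the machinery of transcription. In muscle, class IIa HDACs hold back the MEF2 factors until calcium signals send them out of the nucleus, and the balance of p300 and HDACs accompanies the passage of myoblasts to muscle fibers.

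Below are the 250 bases before the transcription start of 4 deacetylases, chosen because Hdac1 (class I) and Hdac4 (class IIa) were called in several comparisons, while their closest class neighbours Hdac2 and Hdac5 were called in none. They were taken from RefSeq on GRCr8, a later build than the Rnor6.0 of the reads. Capitals mark the GC box GGGCGG and the CCAAT box on either strand, the letters that the Sp and NF-Y factors are known to bind.
Hdac1: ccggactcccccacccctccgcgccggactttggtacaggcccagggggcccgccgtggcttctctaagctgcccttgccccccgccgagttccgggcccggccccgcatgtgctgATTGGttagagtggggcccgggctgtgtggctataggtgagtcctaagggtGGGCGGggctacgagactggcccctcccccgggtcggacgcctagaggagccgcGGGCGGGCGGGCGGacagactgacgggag
Hdac2: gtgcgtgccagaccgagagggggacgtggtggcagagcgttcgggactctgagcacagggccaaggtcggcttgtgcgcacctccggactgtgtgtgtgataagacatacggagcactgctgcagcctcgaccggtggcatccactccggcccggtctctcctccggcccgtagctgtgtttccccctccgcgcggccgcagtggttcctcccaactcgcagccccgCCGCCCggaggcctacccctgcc
Hdac4: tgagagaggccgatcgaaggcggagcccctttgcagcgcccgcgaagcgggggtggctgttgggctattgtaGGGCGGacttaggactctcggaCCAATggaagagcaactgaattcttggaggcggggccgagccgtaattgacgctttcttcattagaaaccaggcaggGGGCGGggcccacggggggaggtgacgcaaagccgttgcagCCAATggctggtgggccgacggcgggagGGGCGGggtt
Hdac5: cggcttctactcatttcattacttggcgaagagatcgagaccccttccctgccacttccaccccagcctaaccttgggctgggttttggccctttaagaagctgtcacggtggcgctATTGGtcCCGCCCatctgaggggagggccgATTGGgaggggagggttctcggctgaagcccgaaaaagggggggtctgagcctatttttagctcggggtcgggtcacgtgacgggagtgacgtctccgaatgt
The Hdac1 stretch lies at chr5:147165388-147165637 on the minus strand, that of Hdac2 at chr20:42102877-42103126 on the plus strand, that of Hdac4 at chr9:100197638-100197887 on the minus strand and that of Hdac5 at chr10:87688055-87688304 on the minus strand. Hdac1 held 4 GC boxes, counting overlapping copies, and 1 CCAAT box. Hdac2 held 1 GC box and 0 CCAAT boxes, Hdac4 held 3 and 2, and Hdac5 held 1 and 2. Of the 42 members 34 had an entry in that table, and 8 did not, among them Brpf3, Ncoa3, Ncoa2, Kat2a, Hdac11, Kat6a and Sirt6. A GC box was present in 20 of the 34 (58.8%) against 32.4% of 27457 rat promoters of that length, and a CCAAT box in 15 (44.1%) against 34.3%. An Ets motif (CGGAAG) was present in 9 members (26.5%) against 14.7% of all promoters, an E-box (CACGTG) in 2, and a TATA motif (TATAAA) in 0 members against 13.1% of all promoters, all searched on both strands. The median G and C content was 61.4% in the members and 52.0% in all promoters. These matches describe the letters of the window only.

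Samples differed in ways that bear on every comparison at 3d. Saline 3d samples had 4851797 to 5249467 reads, MABs allo 3d samples 2170695 to 4491900, MABs allo-VEGF 3d samples 3042531 to 4261098 and 7d samples 5244129 to 10166052, and 1 read was worth 1.67 to 9.23 normalized counts. On the first principal component of the 500 most variable genes, which held 70.7% of the variance, saline 3d replicate 6 lay at 54.6, next to the MABs samples, and the other saline 3d samples at -52.3 to -6.43. MABs allo-VEGF 3d replicate 4 lay at 0.70 and the other samples of its group at 57.3 to 75.2. These 2 samples appear to be absent from the plots of single genes in the study, and results are therefore given with all 24 samples and with the 22 that remain without them. Each lay closest of its group to the group it is compared with. Leaving both out thus widens the separation, so the 22-sample p-values and counts without overlap are not independent support. Genes called in MABs allo-VEGF 3d against saline 3d went from 5 of 16287 to 2213 of 16281. Saline 3d replicate 8 had the fewest genes with a read (14183) and 17.2% of its reads on mitochondrial genes, against 11.1% to 11.7% in the rest of its group. MABs allo 3d replicate 4 had 17.6% on them, against 8.16% to 9.72% in the rest of its group. Small noncoding RNAs took 0.0152% to 0.0276% of the reads in saline 3d, 0.0276% to 0.166% in MABs allo 3d and 0.0189% to 0.0627% in MABs allo-VEGF 3d. Summed markers of mast cells were at 620 to 2332 normalized counts in saline 3d and 246 to 376 in MABs allo 3d, those of Schwann cells at 1637 to 24251 and 888 to 1036, and those of macrophages at 10774 to 21272 and 1108 to 11719. In MABs allo-VEGF 3d these sums were 178 to 642, 2060.1 to 7368 and 4050 to 17686. All 6 smooth muscle markers and all 8 epithelial markers of the list had reads in every group, and so did the 5 skeletal muscle markers that the table holds. Their sums varied, however. Smooth muscle had 23075 to 167642 in saline 3d, 76419 to 137208 in MABs allo 3d and 55366 to 116841 in MABs allo-VEGF 3d. At 7d these MABs groups had 185207 to 205170 and 113935 to 267864. Epithelium had 2109 to 65740 in saline 3d, 34518 to 113701 in MABs allo 3d and 3909 to 94381 in MABs allo-VEGF 3d. Skeletal muscle had 30480 to 145939 in saline 3d, 65215 to 287495 in MABs allo 3d and 77569 to 150864 in MABs allo-VEGF 3d. Every marker of mast cells, Schwann cells and macrophages on the lists had reads in every group. The part of cell makeup and of these shares of reads in the results that follow was not tested. Reads thinned to 2170695 in each sample gave the same count of members called, 8, in MABs allo 3d against saline 3d. Over all 16287 genes, however, the calls went from 1997 to 1435, and those that were higher from 1531 to 1124.

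MABs allo against saline at 3d is the comparison in which most members differed between treatments. Of the 41 members, 8 (19.5%) rose and 0 fell in MABs allo 3d, against 9.4% of the 16287 genes tested that were called higher. Over all genes 466 were called lower. A gene was called, and is said here to have risen or fallen, where its adjusted p was below 0.05 and its log2 fold change beyond 1. The 8 were the acetylases Kat6a, Kat14, Ncoa2 and Ncoa3, the deacetylases Hdac4 and Hdac8, and the readers Brd3 and Brd1, thus 4 of 12 acetylases, 2 of 16 deacetylases and 2 of 13 readers. The median log2 fold change was 0.60 in acetylases, 0.04 in deacetylases and 0.35 in readers, and 0.07 over all genes. The median over all genes became -0.19 with the same total per sample and -0.14 with quantile normalization, and that of the members minus that of all genes went from 0.29 to 0.28 and 0.40. The median of the deacetylases alone went below 0, to -0.23 and -0.21, and with the same total per sample 0 readers were called. With 22 samples the count came to 11 (26.8%), with 3 members added, among them Hdac1 and Ing5, against 13.8% of 16281 genes. Without saline 3d replicate 8 the count was 1, Kat6a, with 2.27% of all genes called in either direction. It was 5 without saline 3d replicate 9 and 3 without MABs allo 3d replicate 1, and with the 22 samples less saline 3d replicate 8 it was 6. A fit of the 2 groups alone called 0 members. On the recovered reads edgeR called 5 members, with 1342 of 16287 genes called, 862 of them higher. For the fits without saline 3d replicate 9 or MABs allo 3d replicate 1, no share of all genes is given here. The same holds for the 22 samples less saline 3d replicate 8 and for the 2 groups alone. Their counts are therefore no result about the members as such.

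MABs allo-VEGF against saline at 3d called 0 members with 24 samples, where 0.0307% of all genes were called higher. At an unadjusted p under 0.05 there were 15 members, where 17.9% of all genes were, edgeR called 0 and DESeq2 called 1, Kat6a. Over all genes edgeR called 1 of 16287 and DESeq2 397 of 16240. With 22 samples 11 members (26.8%) rose and 0 fell, although Hdac8 among them had 3 reads or fewer in every sample of both groups. Over all genes 11.4% rose and 356 of 16281 fell. The 11 members were those called in MABs allo with 22 samples. Since both comparisons use the same 3 saline samples, their values are set side by side below and not counted as separate support. Between MABs allo-VEGF 3d and MABs allo 3d 0 members were called, 0 had an unadjusted p under 0.05 in limma, edgeR or DESeq2, and 0.00614% of all genes were called, with 6.13% at an unadjusted p under 0.05 in limma.

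**Figure D1:**
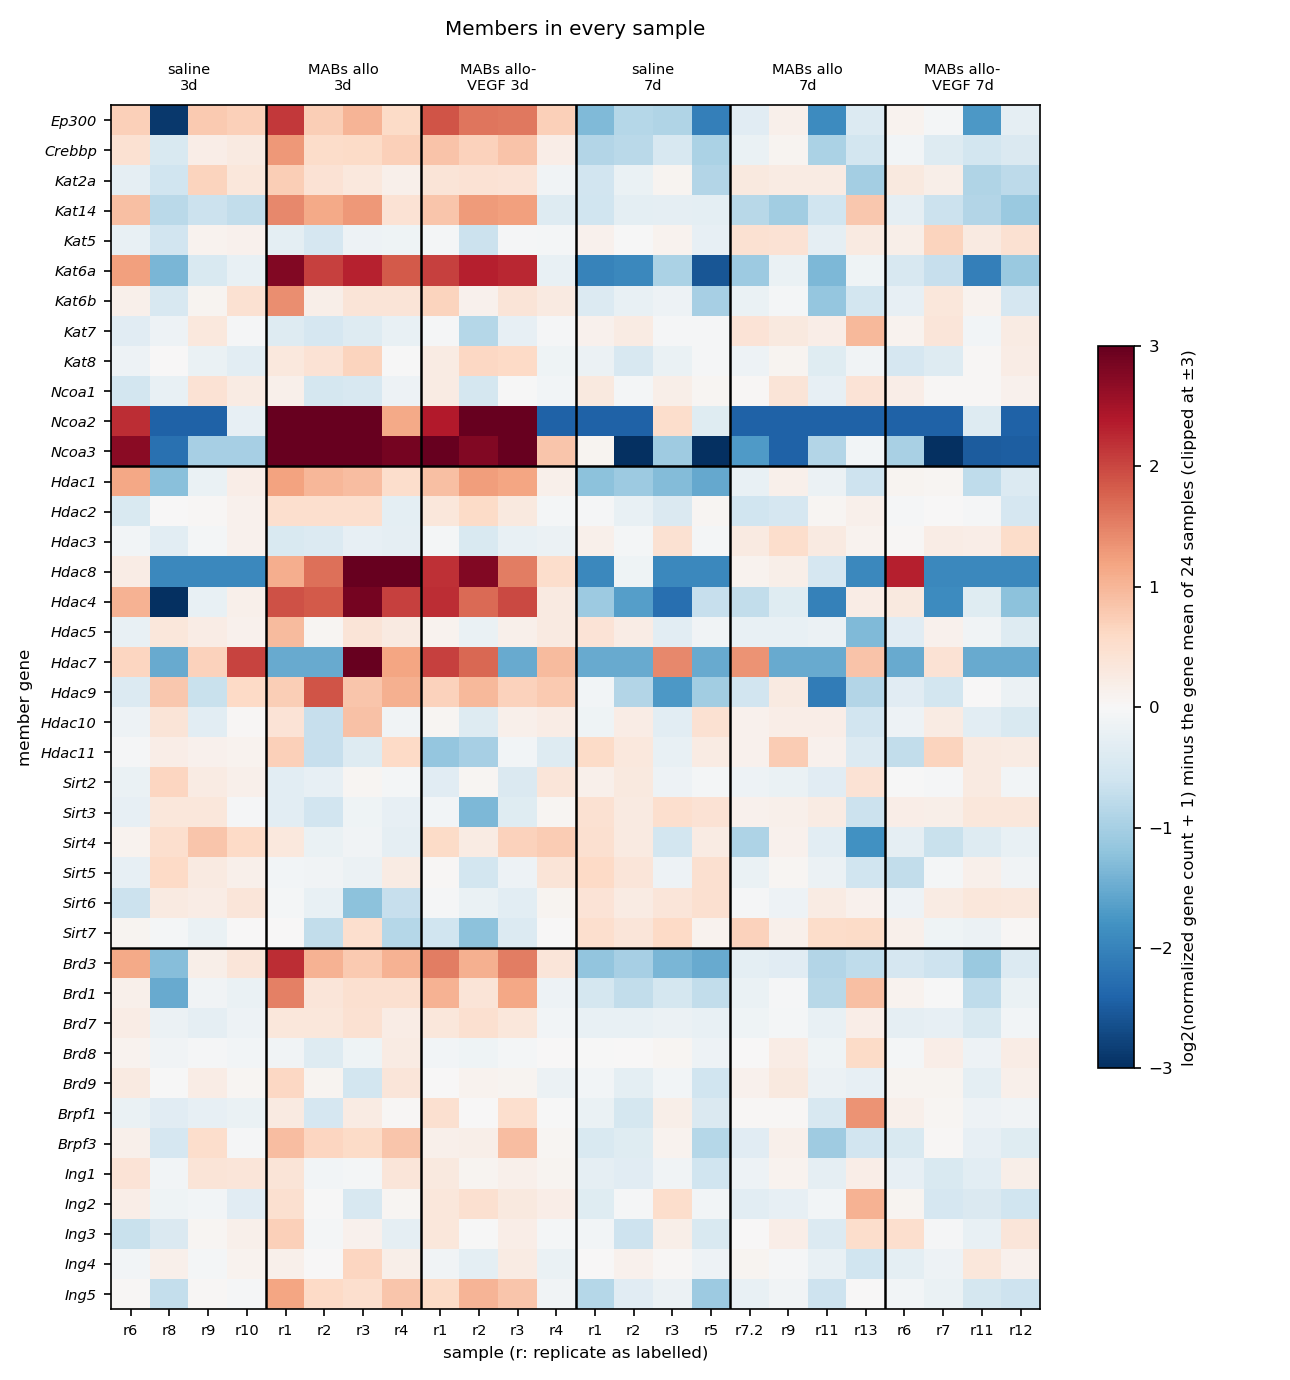
Members in every sample, as log2(normalized gene count + 1) minus the mean of the gene over the 24 samples (color, clipped at 3 in either direction), with acetylases at the top, deacetylases in the middle and readers at the bottom. Ncoa2, Ncoa3 and Kat6a are high (red) in MABs allo 3d replicates 1 to 3, in MABs allo-VEGF 3d replicates 1 to 3 and in saline 3d replicate 6, whereas Kat7 and Hdac3 are pale throughout. Hdac6 and 1 other member are not drawn.

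In what follows, values of a gene are normalized counts in the order of saline 3d replicates 6, 8, 9 and 10, MABs allo 3d replicates 1 to 4, MABs allo-VEGF 3d replicates 1 to 4, saline 7d replicates 1, 2, 3 and 5, MABs allo 7d replicates 7.2, 9, 11 and 13, and MABs allo-VEGF 7d replicates 6, 7, 11 and 12. Fold changes are differences of mean log2(normalized gene count + 1) with their SE. For low genes their size depends on the added 1, the pseudocount, and need not match the change of the group means.

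Among acetylases, Kat6a (ENSRNOG00000025174), a MYST acetylase of histone H3 that maintains stem cells, had the smallest adjusted p. It had 1064, 172, 325 and 387 normalized counts in saline 3d, 3109.8, 1855, 2225 and 1617 in MABs allo 3d, and 1871, 2259, 2149 and 383 in MABs allo-VEGF 3d. In the 7d groups the gene had 112, 117, 231 and 75.5 in saline, 211, 394, 177 and 415 in MABs allo, and 323, 277, 109 and 208 in MABs allo-VEGF. Every MABs allo 3d sample lay above every saline 3d sample, and in MABs allo-VEGF 3d only replicate 4 lay among them. The log2 fold change from saline at 3d was 2.45 ± 0.53 in MABs allo (adjusted p = 0.0084) and 1.81 ± 0.53 in MABs allo-VEGF (adjusted p = 0.10). With 22 samples these were 2.93 ± 0.41 (adjusted p = 7.4e-05) and 2.90 ± 0.44 (adjusted p = 0.00027). The other MYST members were not called at 3d against saline. Kat6b, the paralog of Kat6a, had log2 fold changes of 0.53 and 0.31 in MABs allo and MABs allo-VEGF, Kat8, which acetylates H4 lysine 16, had 0.51 and 0.49, Kat5 (Tip60), which acts in DNA repair, had -0.12 and -0.05, and Kat7 (Hbo1), which acts at origins of replication, had -0.32 and -0.24.

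The p160 coactivators of nuclear receptors were split. Ncoa2 (ENSRNOG00000007975) had 24.1, 0, 0 and 3.52 normalized counts in saline 3d, 263, 98.5, 222 and 10.8 in MABs allo 3d, and 27.0, 100.01, 111 and 0 in MABs allo-VEGF 3d. By 7d it had 0, 0, 6.70 and 3.14 in saline, 0 in all 4 MABs allo samples, and 0, 0, 3.10 and 0 in MABs allo-VEGF. Ncoa2 was thus at or near the limit of detection at 7d and in 3 of 4 saline 3d samples, and MABs allo 3d replicate 4 overlapped with saline 3d replicate 6. Ncoa3 (ENSRNOG00000005616) had 152, 3.92, 10.7 and 10.6 in saline 3d, 795, 399, 351 and 168 in MABs allo 3d, and 292, 158, 338 and 40.1 in MABs allo-VEGF 3d. The values at 7d were 23.7, 0, 10.05 and 0 in saline, 6.19, 3.31, 11.7 and 20.8 in MABs allo, and 10.9, 0, 3.10 and 3.15 in MABs allo-VEGF. All MABs allo 3d values of Ncoa3 lay above all saline 3d values, and saline 3d replicate 6 lay well above its group. The log2 fold change in MABs allo 3d was 4.80 ± 1.30 for Ncoa2 (adjusted p = 0.019) and 4.38 ± 1.10 for Ncoa3 (adjusted p = 0.014). In MABs allo-VEGF 3d it was 2.86 ± 1.30 (adjusted p = 0.24) and 3.16 ± 1.10 (adjusted p = 0.14). Without the 2 samples, saline 3d had 3 reads or fewer of both genes in every sample, so that the fold is a lower bound with 3 reads per sample as the limit. Ncoa2 was then at least 13.5-fold higher in MABs allo 3d and at least 7.21-fold higher in MABs allo-VEGF 3d, and Ncoa3 at least 38.9-fold and 23.9-fold. These are bounds on group means, and MABs allo 3d replicate 4 itself had 3 reads or fewer of Ncoa2. Ncoa1, the founding member of the family, had -0.23 ± 0.22 and -0.07 ± 0.22 at 3d, and its 1246 to 2502 normalized counts in saline 3d overlapped with 1280.2 to 2045 in MABs allo 3d and 1284 to 2189.9 in MABs allo-VEGF 3d.

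Kat14 (ENSRNOG00000007160), the Csr2b subunit of the ATAC complex, belongs to the GNAT family. It had 627, 192, 214 and 201 normalized counts in saline 3d, 916, 733, 822 and 456 in MABs allo 3d, and 595, 817, 782 and 254 in MABs allo-VEGF 3d. At 7d the counts were 219.9, 274, 278 and 274 in saline, 189, 162, 222 and 589 in MABs allo, and 279, 214, 183 and 154 in MABs allo-VEGF. Saline 3d replicate 6 stood within the MABs samples, and the other 3 saline samples at 192 to 214 lay below all of them. Against saline at 3d the log2 fold change was 1.40 ± 0.42 in MABs allo 3d (adjusted p = 0.028) and 1.052 ± 0.42 in MABs allo-VEGF 3d (adjusted p = 0.18), and 1.80 ± 0.34 and 1.84 ± 0.37 with 22 samples (adjusted p = 0.00098 and 0.0021). Kat2a (Gcn5), the acetylase of the SAGA complex, had 0.37 ± 0.36 and 0.25 ± 0.36.

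Neither of the paired coactivators p300 and CBP, which acetylate H3 lysine 27 at enhancers, was called at 3d against saline. Ep300 had 155, 11.8, 164 and 155 normalized counts in saline 3d, 412, 159, 194 and 141 in MABs allo 3d, and 351, 292, 288 and 156 in MABs allo-VEGF 3d. At 7d it had 37.2, 52.3, 50.2 and 22.01 in saline, 74.3, 106, 25.0 and 70.6 in MABs allo, and 102, 91.3, 27.9 and 78.8 in MABs allo-VEGF. The 3d groups overlapped, and saline 3d replicate 8 lay far below the rest of its group. Its log2 fold change at 3d was 1.29 ± 0.66 in MABs allo (adjusted p = 0.19) and 1.63 ± 0.66 in MABs allo-VEGF (adjusted p = 0.19). Crebbp had 6838, 3637, 5775 and 6011 in saline 3d, 12319, 7358, 7468 and 8267 in MABs allo 3d, and 9084, 8051, 9131 and 5726 in MABs allo-VEGF 3d. Its counts at 7d were 2726, 2850.2, 3610.3 and 2578 in saline, 4336, 5324, 2594 and 3407 in MABs allo, and 4727, 3831, 3445 and 3736 in MABs allo-VEGF. Every MABs allo 3d sample of Crebbp lay above every saline 3d sample. Its log2 fold change was 0.67 ± 0.24 (adjusted p = 0.054) and, with 22 samples, 0.79 ± 0.24 (adjusted p = 0.022), below the fold that a call needs.

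Deacetylases of class I are the nuclear enzymes of the Sin3, NuRD, CoREST and NCoR complexes. Hdac1 (ENSRNOG00000009568) had 1983, 368, 772 and 1017 normalized counts in saline 3d, 2045, 1767, 1689 and 1269 in MABs allo 3d, and 1655, 2100.3, 2013 and 988 in MABs allo-VEGF 3d. In the 7d groups the gene had 379, 413, 358 and 302 in saline, 756, 980.1, 787 and 573 in MABs allo, and 932, 916, 521 and 662 in MABs allo-VEGF. Saline 3d replicate 6 stood within the range of MABs allo 3d, and without it saline 3d did not overlap with MABs allo 3d. The log2 fold change was 0.94 ± 0.35 in MABs allo 3d (adjusted p = 0.067) and 0.90 ± 0.35 in MABs allo-VEGF 3d (adjusted p = 0.17), and 1.33 ± 0.29 and 1.53 ± 0.31 with 22 samples (adjusted p = 0.0023 and 0.0021). Hdac2, its near partner in the same complexes, had 519.9, 721, 736 and 785 in saline 3d, 1022, 1029, 1015 and 586 in MABs allo 3d, and 914, 1075, 883 and 686 in MABs allo-VEGF 3d. Its 7d values were 697, 615, 536 and 748 in saline, 474, 509.9, 746 and 805 in MABs allo, and 700.1, 727, 701 and 511 in MABs allo-VEGF. In MABs allo 3d only replicate 4 overlapped with saline, and the log2 fold change was 0.38 ± 0.23 (adjusted p = 0.25). Hdac3, the catalytic subunit of NCoR, had 509.6, 435, 515 and 588 in saline 3d, 391, 405, 452 and 445 in MABs allo 3d, and 519, 392, 459 and 481 in MABs allo-VEGF 3d. At 7d Hdac3 had 599, 520.2, 747 and 516 in saline, 654, 778, 649 and 577 in MABs allo, and 555, 628, 621 and 785 in MABs allo-VEGF. The 3d groups overlapped and the log2 fold changes were -0.27 ± 0.18 and -0.14 ± 0.18.

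Hdac8 (ENSRNOG00000003122), a class I enzyme that deacetylates cohesin and is known from smooth muscle, was hardly detected. It had 3.44, 0, 0 and 0 normalized counts in saline 3d, 7.10, 10.9, 64.6 and 32.5 in MABs allo 3d, and 16.2, 25.0, 10.1 and 4.45 in MABs allo-VEGF 3d. By 7d it had 0, 2.49, 0 and 0 in saline, 3.10, 3.31, 1.67 and 0 in MABs allo, and 18.1, 0, 0 and 0 in MABs allo-VEGF. MABs allo 3d and saline 3d did not overlap, and the call had an adjusted p of 0.013. The samples that lay closest, 7.10 in MABs allo 3d and 3.44 in saline 3d, each held 1 read, so that their order rests on what 1 read is worth. Since saline 3d had 3 reads or fewer in every sample, the mean of Hdac8 was at least 2.66-fold higher in MABs allo 3d. That mean rests on replicates 3 and 4, as replicates 1 and 2 also had 3 reads or fewer. In MABs allo-VEGF 3d it also had 3 reads or fewer in every sample, and no fold can be given against saline.

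Hdac4 (ENSRNOG00000020372), the class IIa deacetylase that is induced in denervated muscle, had 565, 15.7, 236 and 306 normalized counts in saline 3d, 1037, 996, 2031 and 1145 in MABs allo 3d, and 1281, 892, 1089.7 and 329 in MABs allo-VEGF 3d. At 7d the counts were 129, 87.1, 56.9 and 169.8 in saline, 164, 215, 66.7 and 324 in MABs allo, and 337, 74.2, 214 and 117 in MABs allo-VEGF. All MABs allo 3d samples lay above all saline 3d samples, among which replicate 8 was the lowest by far. Against saline at 3d the log2 fold change was 2.94 ± 0.75 in MABs allo 3d (adjusted p = 0.015) and 2.31 ± 0.75 in MABs allo-VEGF 3d (adjusted p = 0.13), and 3.55 ± 0.74 and 3.34 ± 0.79 with 22 samples (adjusted p = 0.0018 and 0.0061). Hdac5, which likewise binds MEF2, had 551 to 811 normalized counts in saline 3d, 667 to 1235 in MABs allo 3d and 558 to 775 in MABs allo-VEGF 3d, with log2 fold changes of 0.30 ± 0.25 and -0.04 ± 0.25. Hdac9 had 28.6 to 82.3, 78.1 to 175 and 75.7 to 91.7, with 1.053 ± 0.51 (adjusted p = 0.16) and 0.71 ± 0.51 (adjusted p = 0.49). Hdac7, the class IIa member known from endothelium, had 0 to 10.6 normalized counts in saline 3d, and of its MABs allo 3d samples only replicate 3 exceeded that, at 73.9.

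The remaining zinc-dependent enzymes were not called in any comparison. Hdac10, a polyamine deacetylase of class IIb, had 169, 243, 150.1 and 190.0 normalized counts in saline 3d, 249, 115, 342 and 174 in MABs allo 3d, and 195, 142, 207 and 218 in MABs allo-VEGF 3d. The values at 7d were 169, 219, 151 and 258 in saline, 204, 215, 214 and 125 in MABs allo, and 167, 222, 149 and 136 in MABs allo-VEGF. The 6 groups of Hdac10 overlapped. Hdac11, the class IV enzyme that removes fatty acyl groups, had 131, 153, 147 and 144 in saline 3d, 220.1, 82.1, 102 and 201 in MABs allo 3d, and 59.5, 66.7, 126 and 102 in MABs allo-VEGF 3d. At 7d Hdac11 had 199.6, 167, 114 and 157 in saline, 146, 225, 147 and 99.6 in MABs allo, and 79.8, 211, 161 and 158 in MABs allo-VEGF. It was lower in every MABs allo-VEGF 3d sample than in every saline 3d sample, and the log2 fold change of -0.75 ± 0.38 had an adjusted p of 0.30.

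All 6 sirtuins had a log2 fold change below 0 in MABs allo 3d, between -0.60 and -0.21 with a median of -0.38, and 0 of them were called. Sirt6, a nuclear deacetylase of H3 that guards telomeres and glycolytic genes, had 461, 866, 836 and 926 normalized counts in saline 3d, 696, 613, 305 and 445 in MABs allo 3d, and 703, 625, 580.2 and 761 in MABs allo-VEGF 3d. Its counts at 7d were 961, 851, 928 and 1003 in saline, 703, 646, 854 and 789 in MABs allo, and 646, 859, 915 and 892 in MABs allo-VEGF. Saline 3d replicate 6 was the lowest of its group, and without it MABs allo 3d lay wholly below saline 3d. Its log2 fold change was -0.60 ± 0.24 (adjusted p = 0.083), and with 22 samples -0.83 ± 0.23 (adjusted p = 0.011), below the fold that a call needs. Sirt3, the main deacetylase of mitochondria, had 179, 270.5, 272 and 208 in saline 3d, 170.4, 142, 194 and 179 in MABs allo 3d, and 200.1, 83.3, 166 and 223 in MABs allo-VEGF 3d. At 7d Sirt3 had 294, 259, 305 and 289 in saline, 232, 235, 252 and 137 in MABs allo, and 247, 239.6, 270.0 and 268 in MABs allo-VEGF. Its groups overlapped at 3d, with -0.42 ± 0.28 in MABs allo and -0.53 ± 0.28 in MABs allo-VEGF. The 6 sirtuins of MABs allo 3d stayed below 0 under each scaling tried. The same total per sample and quantile normalization lowered the median of all genes too, so this adds no support. The sirtuin median minus that of all genes was -0.45 with the deposited scaling, and -0.47 and -0.45 with those 2. Sirt2, a cytoplasmic tubulin deacetylase, Sirt4 and Sirt5, both mitochondrial, and Sirt7 of the nucleolus had -0.35, -0.57, -0.21 and -0.22 in MABs allo 3d, and -0.30, 0.06, -0.25 and -0.50 in MABs allo-VEGF 3d. With 22 samples, 4 of the 6 sirtuins in MABs allo 3d and 5 in MABs allo-VEGF 3d lay wholly below saline 3d, where 10.2% and 11.8% of all genes did.

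**Figure D2:**
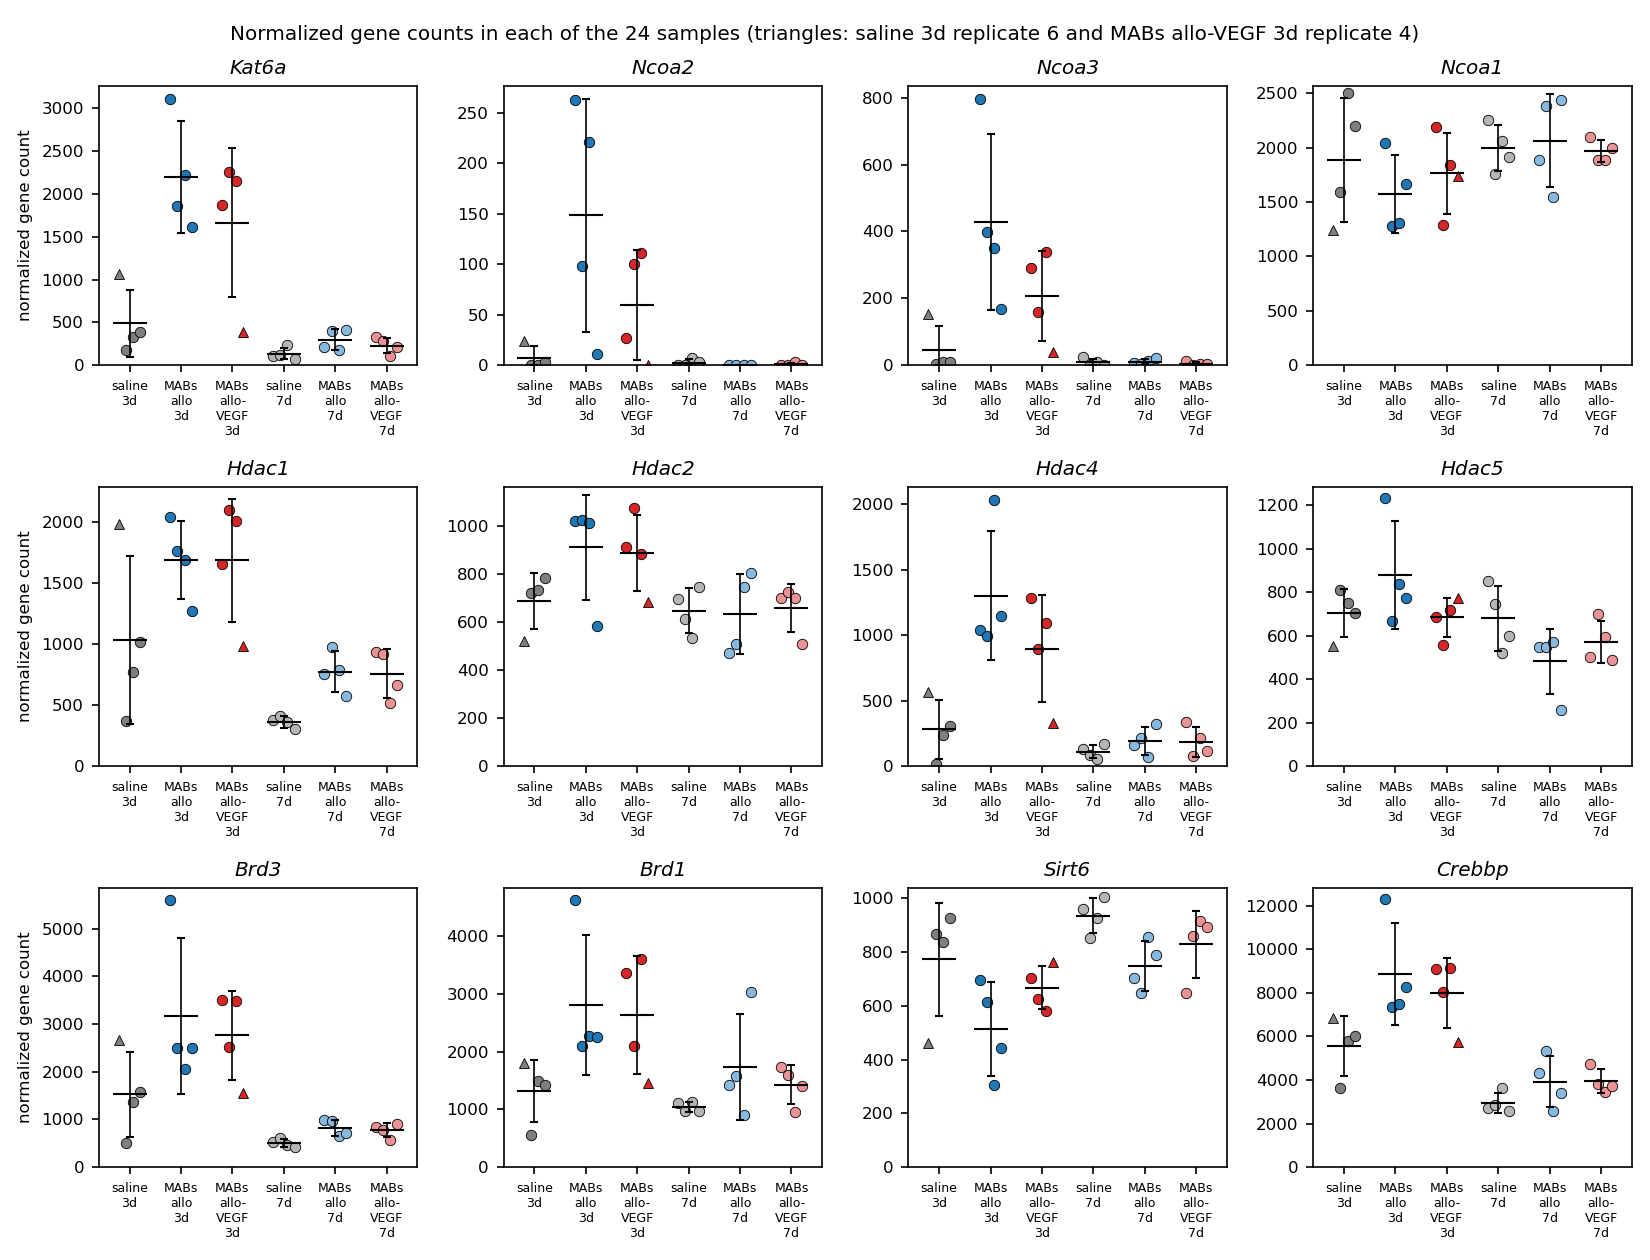
Normalized gene counts of 12 members in each of the 24 samples (points, linear axis from 0), with the group mean (horizontal line) and SD (bar, stopped at 0), n = 4. Kat6a and Hdac4 of MABs allo 3d lie above every saline 3d sample, Ncoa1, Hdac2 and Hdac5 overlap between those groups, and the triangles, the samples that stand apart (replicate 6 of saline and replicate 4 of MABs allo-VEGF, both 3d), often lie on the side of the other group.

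Among readers, Brd3 (ENSRNOG00000007681), a BET protein whose bromodomains bind acetylated histones, had 2658, 502, 1369 and 1566 normalized counts in saline 3d, 5595, 2495, 2068 and 2501 in MABs allo 3d, and 3504, 2517, 3486 and 1549.5 in MABs allo-VEGF 3d. At 7d it had 531, 609.9, 466 and 425 in saline, 985, 957, 652 and 709.7 in MABs allo, and 845, 784, 559 and 911 in MABs allo-VEGF. The 3d groups overlapped through saline replicate 6 alone in MABs allo. The log2 fold change was 1.16 ± 0.37 in MABs allo 3d (adjusted p = 0.039) and 1.01 ± 0.37 in MABs allo-VEGF 3d (adjusted p = 0.16), and 1.51 ± 0.34 and 1.61 ± 0.37 with 22 samples (adjusted p = 0.0034 and 0.0048).

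Brd1 (ENSRNOG00000004538), the scaffold of the Kat7 complex, had 1801, 564, 1497 and 1418 normalized counts in saline 3d, 4636, 2101, 2271 and 2262 in MABs allo 3d, and 3363, 2109, 3602 and 1460.5 in MABs allo-VEGF 3d. In the 7d groups the gene had 1119.6, 966, 1125 and 975 in saline, 1422, 1579, 904 and 3042 in MABs allo, and 1738, 1597, 962 and 1406 in MABs allo-VEGF. All MABs allo 3d samples lay above saline 3d, and the log2 fold change was 1.13 ± 0.37 (adjusted p = 0.040), with 1.03 ± 0.37 in MABs allo-VEGF 3d (adjusted p = 0.15). The related scaffolds of the Kat6 complexes were not called, with 0.26 ± 0.27 and 0.49 ± 0.27 for Brpf1 and 0.71 ± 0.28 and 0.29 ± 0.28 for Brpf3. Ing5 (ENSRNOG00000018988), a PHD finger subunit of the Kat6 and Kat7 complexes, had 541, 321, 539.6 and 514 in saline 3d, 1193, 799, 748 and 944 in MABs allo 3d, and 779, 1075, 933 and 489.8 in MABs allo-VEGF 3d. The values at 7d were 291, 418, 469 and 245 in saline, 449, 490.1, 344 and 527 in MABs allo, and 497, 459, 363 and 344 in MABs allo-VEGF. MABs allo 3d did not overlap with saline 3d, and the log2 fold change was 0.95 ± 0.26 (adjusted p = 0.021), and 1.02 ± 0.26 with 22 samples (adjusted p = 0.0079). Brd7, a subunit of the PBAF remodeler, had 0.43 ± 0.15 (adjusted p = 0.057). Brd8 of the Tip60 complex and Brd9 of a BAF remodeler had -0.06 and 0.00, and Ing1 to Ing4 between -0.12 and 0.35, all uncalled.

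**Figure D3:**
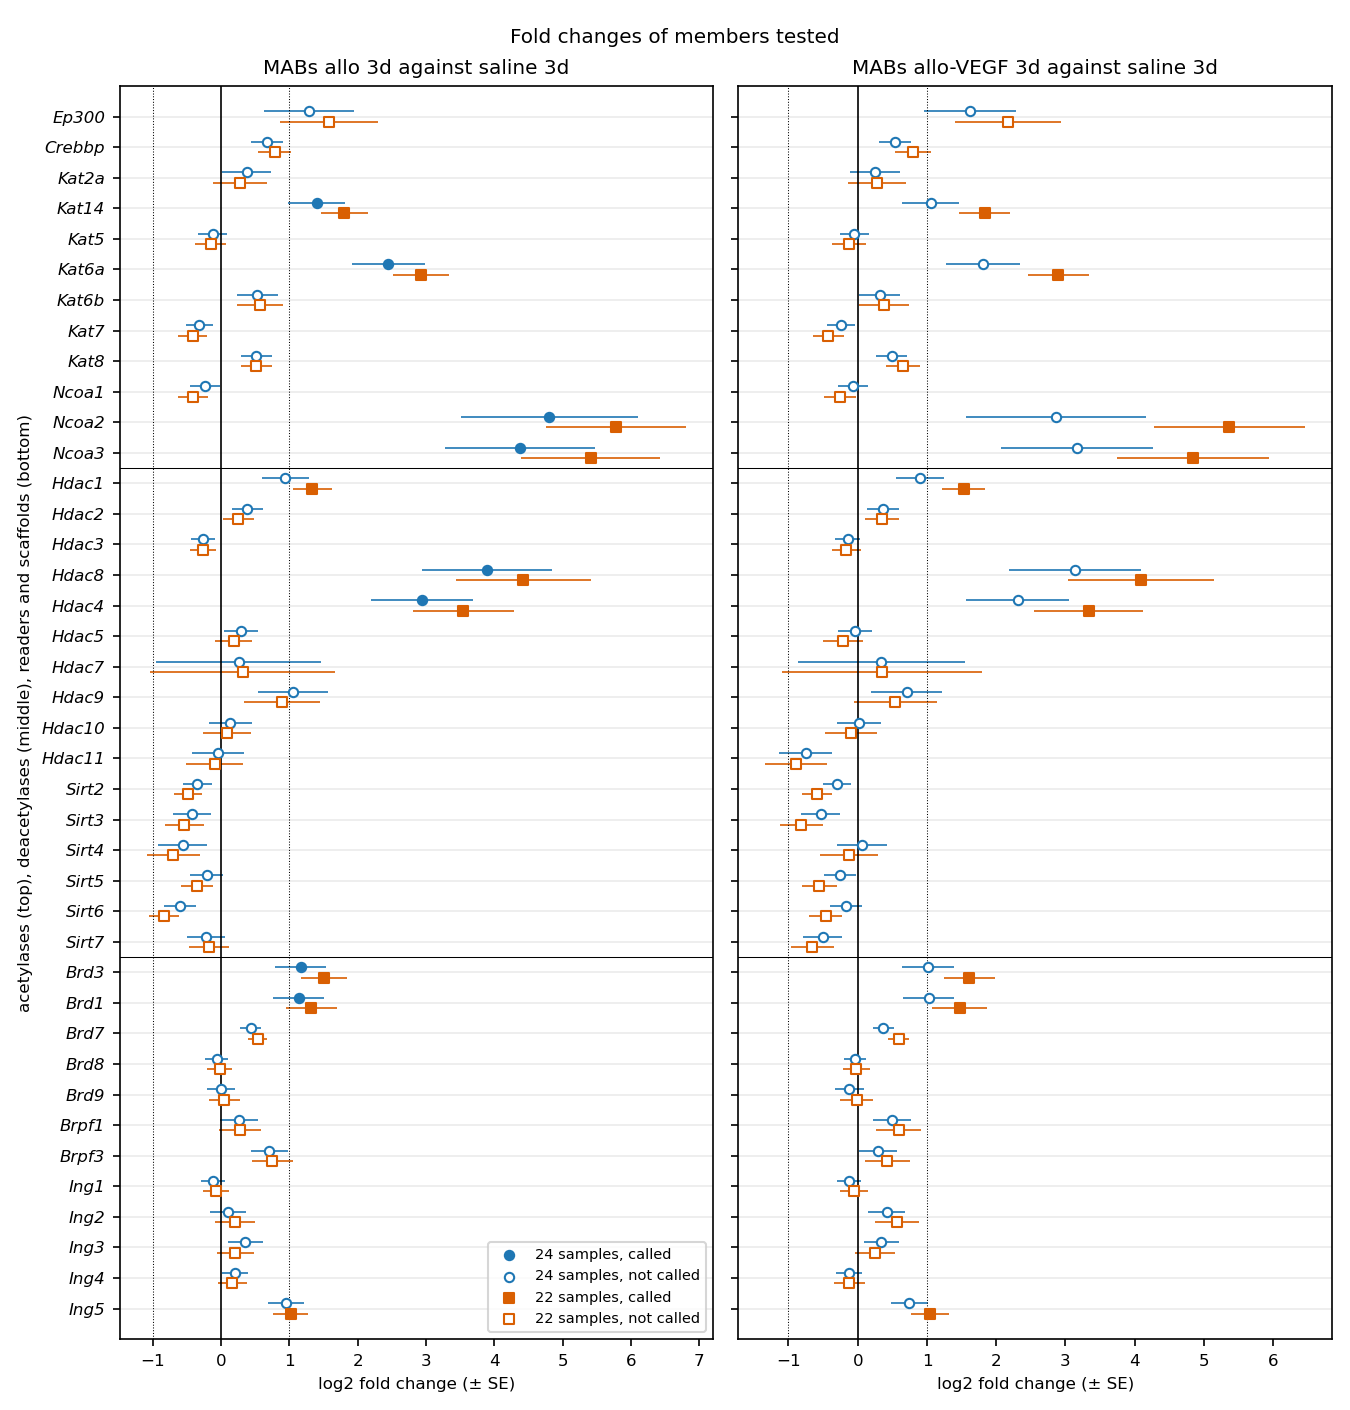
Log2 fold changes from saline 3d (± SE, horizontal axis) of 40 of the 41 members tested in MABs allo 3d (left) and MABs allo-VEGF 3d (right), with 24 samples (blue circles) and with 22 samples (orange squares), filled where called and with dotted lines at 1 in either direction. Of the blue circles 8 are filled on the left and 0 on the right, and 10 orange squares are filled in each, while the values of Ncoa2, Ncoa3 and Hdac8, whose saline counts were near 0, depend on the pseudocount of 1.

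By the overlap of the samples alone, 9 members (22%) were higher in every MABs allo 3d sample than in every saline 3d sample, against 9.44% of all genes, and 0 were lower, against 5.22%. In MABs allo-VEGF 3d it was 2 members (4.88%), Hdac8 and Brpf1, against 2.36%, and 1 member, Hdac11, was lower, against 1.64%. Hdac8 is counted in both comparisons on samples that each held 1 read where they lay closest, 4.45 and 3.44 normalized counts in MABs allo-VEGF 3d and saline 3d, and without it the latter count is 1. With 22 samples these shares were 34.1% of the members (14) against 17.8% of all genes in MABs allo 3d and 43.9% (18) against 21.2% in MABs allo-VEGF 3d.

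Between 7d and 3d all members called with the deposited scaling were higher at 3d. In saline 2 members (4.88%), Hdac1 with 1.27 ± 0.35 and Brd3 with 1.37 ± 0.37 (adjusted p = 0.041 for both), were higher at 3d, against 2.59% of all genes. That count was 7 without saline 3d replicate 8 and 0 without any other saline sample. In MABs allo 14 members (34.1%) were higher at 3d, against 17% of all genes. By the fold of a call 0 were lower, against 986 of 16287 genes. In MABs allo-VEGF 10 members (24.4%) were higher at 3d, against 13.1%, and with 22 samples 13 (31.7%) against 16.6%, with Hdac8 among the 13 although its 3d samples then had 3 reads or fewer. That count was 4 without MABs allo-VEGF 3d replicate 2 or 3 or 7d replicate 12, and 6 without 3d replicate 1 or 7d replicate 7.

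Ncoa2 and Ncoa3 had the largest fitted differences between the days in both MABs groups. In MABs allo, Ncoa2 was at least 16.2-fold higher at 3d, and Hdac8 at least 3.14-fold, as 7d had 3 reads or fewer in every sample. These bounds, and those for MABs allo-VEGF below, are on group means. Some 3d samples of Ncoa2 and Hdac8 had 3 reads or fewer themselves. Ncoa3 had a log2 fold change of 5.27 ± 1.10 (adjusted p = 0.0011), Kat6a 2.93 ± 0.53 (adjusted p = 0.00041), Hdac4 2.90 ± 0.75 (adjusted p = 0.0054) and Hdac9 1.95 ± 0.51 (adjusted p = 0.0060). The other 8 called, among them Brd3, Kat14, Brpf3, Crebbp, Hdac1, Kat6b and Ing5, had 1.02 to 1.84. Below 0, and short of the fold of a call, were Kat7 with -0.84 ± 0.20 (adjusted p = 0.0030), Sirt7 with -0.76 ± 0.28 (adjusted p = 0.043) and Hdac3 with -0.64 ± 0.18 (adjusted p = 0.0085), which are 3 members (7.32%) against 11.3% of all genes lower at such an adjusted p. In MABs allo-VEGF, Ncoa3 was at least 21.7-fold and Ncoa2 at least 6.23-fold higher at 3d, Kat6a had 2.68 ± 0.53 (adjusted p = 0.0013), Hdac4 2.33 ± 0.75 (adjusted p = 0.030) and Ep300 1.93 ± 0.66 (adjusted p = 0.042). The other 5 called, among them Brd3, Kat14, Hdac1 and Crebbp, had 1.01 to 1.78. Which members were called depended on the scaling. With the same total per sample the MABs allo count was 8 higher and 1 lower (Kat7), against 2363 and 1628 of 16287 genes. With quantile normalization it was 10 higher and 1 lower (Sirt7) in MABs allo, against 2186 and 1847 of all genes. In MABs allo-VEGF it was then 9 higher and 2 lower (Hdac11 and Sirt3), against 1645 and 777. In MABs allo the members with a log2 fold change above 0 went from 29 to 24 and 28 under these scalings.

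At 7d no member was called between treatments. In MABs allo against saline, MABs allo-VEGF against saline and MABs allo-VEGF against MABs allo, limma called 0 members and 0% of all genes, and edgeR and DESeq2 called 0 members in each. Over all genes edgeR called 0 in each, whereas DESeq2 called 0, 26 and 4 of 16240. At an unadjusted p under 0.05 in limma there were 5, 2 and 0 members, where 6.23%, 6.34% and 2.78% of all genes were. Hdac1 had the smallest of these, with 302 to 413 normalized counts in saline 7d, 573 to 980.1 in MABs allo 7d and 521 to 932 in MABs allo-VEGF 7d. Neither MABs group overlapped with saline, and its log2 fold changes of 1.07 ± 0.35 and 1.03 ± 0.35 had adjusted p of 0.73 and 0.59. Higher without overlap were 3 members in MABs allo 7d (7.32%, against 3.24% of all genes), Hdac1 and Brd3 among them, and 3 in MABs allo-VEGF 7d (7.32%, against 2.92%), Kat5 and Hdac1 among them. Sirt3 alone was lower without overlap in MABs allo 7d, where 1.63% of all genes were. Between the recovered and the other MABs allo-VEGF 7d samples, 2 against 2, 0 members and 0% of all genes were called, and 1 member, Kat2a, had an unadjusted p under 0.05, as did 2.72% of all genes (edgeR and DESeq2 called 0 members, with 2 each under 0.05). Over all genes edgeR called 0 here and DESeq2 1 of 16248.

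Whether the difference from saline itself changed between 3d and 7d was tested as an interaction, which called 0 members and 0% of all genes for both kinds of MABs with 24 samples. At an unadjusted p under 0.05 6 members passed for MABs allo, against 13.6% of all genes, 3 passed with the VEGF cells, against 8.23%, and edgeR and DESeq2 called 0. With 22 samples Kat14 (1.85, adjusted p = 0.032) and Ncoa2 (adjusted p = 0.0090) were called higher at 3d for MABs allo, where 3.02% of all genes were. For MABs allo-VEGF they were Kat14 (2.19, adjusted p = 0.019), Kat6a (2.12, adjusted p = 0.044) and Ncoa2 (adjusted p = 0.026), where 3.16% were.

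Acetylases were set against deacetylases in each sample as the mean log2(normalized gene count + 1) of the 12 acetylases minus that of the 16 deacetylases in the fit. In saline 3d this difference was 1.10, -0.14, 0.42 and 0.35, in MABs allo 3d 1.93, 1.49, 0.95 and 0.80, and in MABs allo-VEGF 3d 1.22, 1.32, 1.64 and 0.17. At 7d it was 0.05, -0.22, 0.66 and -0.24 in saline, 0.14, 0.21, 0.11 and 0.72 in MABs allo, and 0.29, 0.12, 0.10 and 0.24 in MABs allo-VEGF. The samples that stand apart lay on the side of the other group here too, and the 3d groups overlapped. Group means (± SD, n = 4) were 0.43 ± 0.51, 1.29 ± 0.52 and 1.09 ± 0.63 at 3d, and 0.06 ± 0.42, 0.30 ± 0.29 and 0.19 ± 0.09 at 7d. With 22 samples the saline 3d mean was 0.21 ± 0.31 and that of MABs allo-VEGF 3d was 1.39 ± 0.22 (n = 3 each).

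The mean of the acetylases was 7.99 in saline 3d, 9.30 in MABs allo 3d and 8.97 in MABs allo-VEGF 3d, and that of the deacetylases 7.56, 8.01 and 7.88. The gap between the groups rested largely on Ncoa2 and Ncoa3, which are low in most samples and pull the acetylase mean down where they are near 0. Without both, the difference was 1.44 ± 0.29 in saline 3d, 1.65 ± 0.40 in MABs allo 3d and 1.69 ± 0.32 in MABs allo-VEGF 3d, and 1.22 ± 0.27, 1.51 ± 0.27 and 1.46 ± 0.20 at 7d. With 24 samples the means of the 3d groups then lay within 1 SD of each other. With 22 samples, and without both genes, saline 3d was at 1.37 ± 0.31 and MABs allo-VEGF 3d at 1.84 ± 0.14 (n = 3 each), which is further apart than either SD. MABs allo 3d, at 1.65 ± 0.40 (n = 4), lay within 1 SD of that saline 3d mean. Without all 3 p160 genes, MABs allo 3d minus saline 3d went from 0.86 to 0.30, and MABs allo 3d minus MABs allo 7d from 0.998 to 0.27. No test was made on the difference, since it is a sum over chosen members.

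**Figure D4:**
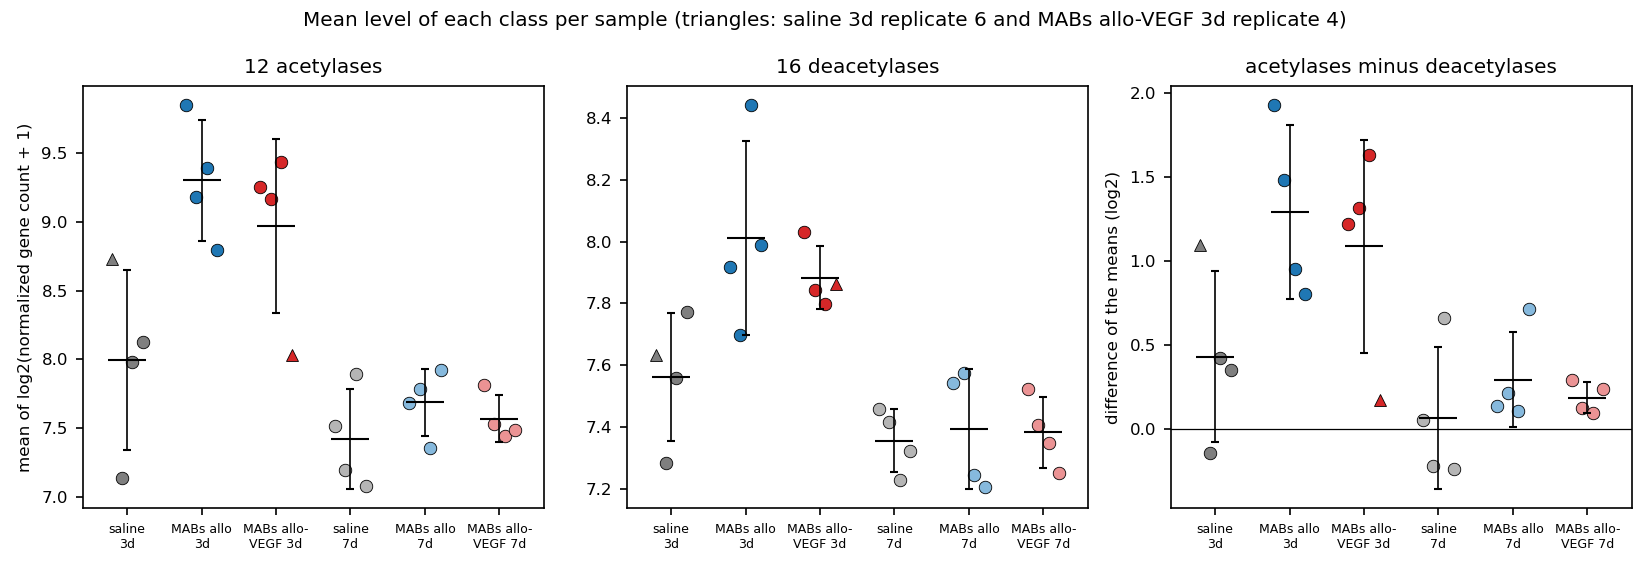
Mean log2(normalized gene count + 1) of the 12 acetylases (left) and 16 deacetylases (middle), and their difference (right), in each of the 24 samples (points), with the group mean (line) and SD (bar), n = 4. The difference is 0.80 to 1.93 in MABs allo 3d and -0.14 to 1.10 in saline 3d, so that the groups overlap through saline 3d replicate 6 (triangle). The vertical axes do not start at 0.

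Partners of these enzymes were read from 4 lists. Of 26 subunits of HDAC complexes tested, 3 rose in MABs allo 3d against saline and 0 fell. Of all 16287 genes 9.4% rose and 466 fell. The median log2 fold change of the 26 was 0.59, against 0.07 over all genes. The 3 were Mier1 with 1.33 ± 0.35, a scaffold that binds Hdac1, and Gatad2b with 2.10 ± 0.56 and Mbd3 with 1.12 ± 0.37, both of NuRD. Gatad2b had 74.5 to 988 normalized counts in saline 3d and 905 to 1569 in MABs allo 3d, which overlapped. Of 38 subunits of acetylase complexes, 7 rose and 0 fell (median 0.69, against the same 9.4%), among them Epc1 of the Tip60 complex with 2.85 ± 0.54 and Morf4l1, a chromodomain subunit of the same complex, with 1.94 ± 0.50. Epc1 had 10.6 to 39.3 normalized counts in saline 3d and 120 to 263 in MABs allo 3d, with no overlap.

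Of 29 other proteins with a reader domain for acetyl-lysine, 11 rose and 1 fell (median 0.87), against 9.4% of all genes higher and 466 lower. Kmt2a, a H3 lysine 4 methyltransferase with a bromodomain, had 157 to 1722 normalized counts in saline 3d and 2440.0 to 5581 in MABs allo 3d, with a log2 fold change of 2.43 ± 0.58. Brwd1 had 2.27 ± 0.47 and Pbrm1, the polybromo subunit of PBAF, 1.69 ± 0.38. Brdt, the BET protein of the testis, fell from 7.04 to 35.7 normalized counts in saline 3d to 1 read or less in every MABs allo 3d sample, too few for a fold. Of 12 enzymes and carriers that supply acetyl-CoA and NAD, 0 were called in either direction (median -0.23), where 1997 of 16287 genes were. In MABs allo-VEGF 3d 0 genes of the 4 lists were called with 24 samples, where 5 of 16287 genes were. With 22 samples 3, 10 and 14 rose in the first 3 lists, where 11.4% of all genes did. In the last list 1, Nmnat3 of NAD synthesis, then fell, where 356 of 16281 genes did.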

How the data were processed

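Samples were 24 rat urethras, 4 in each of 6 groups taken from the labels. The authors used fastq-mcf to trim, HISAT2 for alignment to the Rnor6.0 build and HTSeq for counting, without multi-mapped reads, and deposited the counts divided by DESeq2 size factors, a normalized signal per gene. In all 24 samples 100% of the values were whole multiples of the value of 1 read (tolerance 1e-06), so reads and depth (2170695 to 10166052 reads per sample) were recovered.

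Where a symbol was repeated the row with the highest mean was kept. Genes with a mean of at least 2 were tested with limma 3.58.1 (R 4.3.3, lmFit and eBayes with trend) on log2(value + 1), as 1 fit of 6 groups, two-sided, with Benjamini-Hochberg adjustment over all genes tested, and genes past 1 on the log2 scale in either direction with an adjusted p under 0.05 were called. The values are not counts, so edgeR 4.0.16 and DESeq2 1.42.0 (also with ashr 2.2.63) on recovered reads were alternatives, as were other pseudocounts, filters, scalings, thinned reads, sample weights, a replicate block and leaving out samples. Tested on simulated data with 200 of 16287 genes changed by 2 on the log2 scale between MABs allo 3d and saline 3d, limma called 150 of them and 17 others, edgeR 155 and 8, and DESeq2 159 and 23. The changed genes were drawn from those with higher counts, all genes had the same dispersion, and no sample was made to stand apart. These rates need not hold for members near the limit of detection. The 36 pairs of replicates differed by more than counting noise (chi-square per degree of freedom 9.003 to 121.4). A fold against a group with 3 reads or fewer in every sample is a lower bound on the fold of the group means, with 3 reads per sample as the limit, and covers counting error only. Single samples of the higher group can lie within that limit.

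The members and the lists of partners and markers were chosen with earlier results of these data known. Values in every sample are given for Hdac1, Kat6a, Ep300, Crebbp, Hdac2 and Hdac3, for the member of each role class with the largest change from saline at 3d in either MABs group, and for members called in a comparison, up to 5 per comparison by size of change. Promoters are from RefSeq (GRCr8). Genes with overlapping or antisense partners may share reads. A member, which is in the counts and medians, is not reported here.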

Additional observations from a re-analysis of the deposited data

Results flagged for a closer look

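In 19 of 120 groups of 4 samples tested, 1 sample lay apart from the other 3 by the 95% limit of Dixon's test. Chance gives this in about 1 of 20 groups where values are independent and normally distributed. The groups here share samples, and a lone value above others at 0 is always flagged, so the count cannot be set against that rate. In saline 3d, replicate 6 was apart for Kat14 at 627 normalized counts, Ncoa2 at 24.1, Ncoa3 at 152 and Hdac8 at 3.44, each the highest of its group, and replicate 8 for Ep300 at 11.8 and Ing5 at 321, each the lowest. In MABs allo 3d, replicate 1 was apart for Brd1 at 4636 and Brd3 at 5595 and replicate 3 for Hdac4 at 2031, all high, and replicate 4 for Hdac2 at 586, which was low. In MABs allo 7d, replicate 13 was apart for Kat14 at 589, Hdac10 at 125 and Sirt3 at 137, and its acetylases minus deacetylases stood at 0.72, above the 0.11 to 0.21 of the others. In saline 7d these were Kat14 of replicate 1 at 219.9 and Hdac8 of replicate 2 at 2.49. In MABs allo-VEGF 7d they were Hdac8 of replicate 6 at 18.1, Ncoa2 of replicate 11 at 3.10 and Hdac2 of replicate 12 at 511. The values of Ncoa2 and Hdac8 among these rest on 1 to 7 reads. What sets these samples apart was not tested.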

How the results depend on the processing

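Counts are of members called. Calls over all genes changed between settings too. In MABs allo 3d against saline 3d the 1997 of 16287 became 1342 with edgeR and 2951 of 16281 with 22 samples. For MABs allo 3d against saline 3d the 8 became 0 with a replicate block and in a fit of the 2 groups alone, and 5 with edgeR and with ashr. For MABs allo-VEGF 3d against saline 3d the 0 became 11 with 22 samples, also with the same filter, 9 with 21 samples or sample weights, 1 with DESeq2 or ashr, and 9 (edgeR) and 10 (DESeq2) with 22 samples. For saline 3d against 7d the 2 became 0 with the same total per sample, 22 samples (also with the same filter or edgeR), the replicate block, the groups alone or thinned reads, 1 with DESeq2 on 22 samples, 4 with DESeq2 and 5 with sample weights. For MABs allo 3d against 7d the 14 became 9 with the same total per sample and 7 with the block, and for MABs allo-VEGF 3d against 7d the 10 became 5 with the block. For MABs allo-VEGF 7d against saline 7d the 0 became 1 with sample weights and with DESeq2 on 22 samples. The interaction of MABs allo went from 0 to 2 with 22 samples (also with the same filter, sample weights or edgeR), 1 with 21 and 4 with DESeq2 on 22, and that of MABs allo-VEGF to 3 with 22 samples (also with the same filter), 2 (edgeR) and 4 (DESeq2), and 1 with 21 samples or sample weights. The cause of these differences was not tested, and the settings with 21 samples, the same filter, and edgeR or DESeq2 on 22 samples were chosen after seeing the data.

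Leaving out 1 sample at a time gave 1 to 11 members in MABs allo 3d and 0 to 10 in MABs allo-VEGF 3d against saline 3d, and 0 to 7 in saline, 11 to 15 in MABs allo and 4 to 13 in MABs allo-VEGF between the days. Saline 3d against 7d gave 1 without MABs allo 7d replicate 7.2. The difference of acetylases and deacetylases moved to 0.30 (MABs allo 3d minus saline 3d) and 0.27 (minus MABs allo 7d) without the 3 p160 genes, and the latter to 0.32 with sums of normalized counts. Among fold changes of named members, those leaving out 1 sample kept their side of the threshold in 1066 cases and crossed it in 33 to a call and 53 from one, and under other settings 664, 90 and 58, and 0 reversed while called.

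Same-numbered samples of MABs allo 3d and MABs allo-VEGF 3d had correlated deviations of 0.222, 0.1505, 0.07338 and 0.2535, not all above 0.1, and the labels do not pair them. Replicates 1, 2 and 4 correlated best with their own number and replicate 3 with another. The block within these 2 groups called 0 members. At the depths here 1 read was worth up to 9.23 normalized counts, which limits Ncoa2, Hdac6, Hdac7 and Hdac8.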
